A study of Mus musculus with 12 samples.

Results

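The genes described here encode the proteins of the cytosolic ribosome. They were taken by symbol (Rpl or Rps followed by a number, or Rpsa, Rplp0, Rplp1 and Rplp2), without the Rps6k kinases and without pseudogenes marked -ps, from the probes of an expression array whose accession matched a mouse gene. Of 95 such symbols listed for the mouse, 88 had a probe, with 178 probes in all, and 86 of the 13350 genes that passed the filter on dim probes were members. The other 2, Rpl3l and Rpl10l, known as muscle and testis counterparts of Rpl3 and Rpl10, were not well above background in the tumour sample's channel (Cy3) on any of the 12 arrays. By role, the tested members were 43 proteins of the large subunit, 31 of the small subunit, 3 of the stalk (Rplp0, Rplp1, Rplp2) and 9 diverged copies or genes that only share the name, such as Rpl39l, Rpl22l1 and Rps19bp1, so that 77 were core ribosomal proteins. Rps4l, annotated as a transcribed pseudogene, meets the rule by its symbol and was kept.

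The RNA came from mammary tumours of FVB mice that carried the MMTV-wnt1 transgene, in which a mouse mammary tumour virus promoter drives Wnt1 in mammary epithelium. The 4 groups of 3 arrays were stroma of Rarb -/- tumours (KO stroma), stroma of Rarb wild-type tumours (WT stroma), epithelium of Rarb -/- tumours (KO epithelium) and epithelium of Rarb wild-type tumours (WT epithelium). Both compartments were cut by laser capture from tumours numbered 1, 3 and 4 (KO) and 1, 2 and 3 (WT); neither the ages of the mice nor whether each tumour came from its own animal is stated, and p-values speak only of the spread among these tumours. Amplified tumour RNA was labelled with Cy3 and a common mouse reference RNA with Cy5, and every level below is a log2 ratio of the tumour sample over that reference.

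A ribosome is built from ribosomal RNA and one copy of most of these proteins, so cells usually make the proteins in matched amounts, and their mRNAs are among the most abundant of growing cells. Ribosomal protein mRNAs begin with a 5′ terminal oligopyrimidine tract, a C followed by a run of C and T, through which mTOR signalling and the protein Larp1 control their translation. Their promoters are known for binding sites of ETS-family factors and YY1.

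The starts of the 5 members that passed the test in stroma are shown here. Also shown are Rpl15, the member with the longest tract from its annotated start onward, and Rpl39l, a diverged copy. The stromal estimate of Rpl39l ran the other way. The sequences are RefSeq promoter windows of build GRCm38.p6, cut to 80 bases before and 20 after the annotated start and given on the gene's own strand, and capitals mark the longest run of a C with at least 4 further C or T that begins within 20 bases of the start.
Rpl15, chr14:18270967-18271066, minus strand: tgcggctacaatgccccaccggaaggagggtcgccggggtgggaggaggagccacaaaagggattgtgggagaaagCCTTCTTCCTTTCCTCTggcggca
Rpl4, chr9:64173307-64173406, plus strand: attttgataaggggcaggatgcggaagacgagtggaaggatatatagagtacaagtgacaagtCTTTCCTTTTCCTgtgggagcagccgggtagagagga
Rpl7a, chr2:26910727-26910826, plus strand: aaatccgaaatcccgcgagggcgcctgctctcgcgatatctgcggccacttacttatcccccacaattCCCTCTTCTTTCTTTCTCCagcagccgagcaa
Rpl32l, chr10:20208359-20208458, plus strand: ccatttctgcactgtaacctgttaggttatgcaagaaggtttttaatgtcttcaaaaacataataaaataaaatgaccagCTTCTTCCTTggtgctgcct
Rps2, chr17:24719983-24720082, plus strand: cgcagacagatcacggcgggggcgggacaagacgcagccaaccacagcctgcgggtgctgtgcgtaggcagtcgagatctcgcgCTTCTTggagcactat
Rps3, chr7:99483690-99483789, minus strand: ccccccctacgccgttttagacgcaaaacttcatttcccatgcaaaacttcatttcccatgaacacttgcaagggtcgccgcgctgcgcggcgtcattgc
Rpl39l, chr16:10170148-10170247, plus strand: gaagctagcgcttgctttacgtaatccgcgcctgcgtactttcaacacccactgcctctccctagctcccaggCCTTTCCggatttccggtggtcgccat

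The tract was 17 bases long in Rpl15, 13 in Rpl4, 19 in Rpl7a, 10 in Rpl32l, 6 in Rps2 and 7 in Rpl39l, while that of Rps3, of 5 bases, begins at the last base printed and is not marked. A RefSeq window was at hand for 67 of the 88 members. A tract of 5 or more bases, read from the annotated start onward, was found in 14 of the 67 (20.9%), against 3.01% of 27025 genes with a window. Such a tract can extend upstream of the start, as in Rpl15, where it begins at position -4. A C followed by at least 4 C or T, within 20 bases of the start, stood in 54 (80.6%), against 53.3% of all genes. The ETS motif TTCCGG stood in 35 of the 67 windows of 300 bases (52.2%), on either strand, against 16.7% of all genes and 58% of 69 mitochondrial ribosomal protein genes. The YY1 motif AAGATGGC was found in 6 members (8.96%, against 3.19% of all genes), and AGGTCA, the half-site that retinoic acid receptors bind, in 7 (10.4%, against 18.1%). No member's window held 2 copies of AGGTCA in the same orientation 5 bases apart, as 3 of all genes did. A match is a string of letters and not a bound site. In stroma the median KO minus WT difference was -0.64 over the 14 tested members with the tract at the annotated start and -0.44 over the 51 without it, and -0.39 over the 35 with TTCCGG and -0.53 over the 30 without it.

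Of the spots on the arrays, these genes gave some of the brightest, and this bears on every level below. Probes of members made up 28.5% of the 200 brightest probes, averaged over both channels, but 0.32% of all probes. Each array was normalized with a loess curve, which centres the ratio at every brightness. After it the median ratio of the members on an array lay between -0.77 and 0.38, and with median centring alone in its place, between -2.64 and -1.01 (the median of all tested genes then lay between -0.75 and -0.16). Whether the members as a whole lay above or below the reference RNA was therefore set by the normalization, and only differences between groups are read from here on. No spot of any array was saturated, and Cy3 was well above background at 37.1% to 47.3% of the probes of an array.

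The members as a whole shifted from array to array. Their median ratio was -0.58, -0.53 and -0.23 in KO stroma (tumours 1, 3 and 4), against 0.07, 0.38 and -0.16 in WT stroma (tumours 1, 2 and 3). In epithelium the medians were -0.04, -0.18 and -0.27 for KO, against 0.05, -0.04 and -0.77 for WT. The 3 KO stroma arrays lay below the 3 WT stroma arrays, with KO tumour 4 and WT tumour 3 near each other, and in epithelium the groups overlapped. WT epithelium of tumour 3 was the array lowest in the members among the 6 epithelial arrays for 70 of 86 genes, and it also carried 211 of the spots flagged as non-uniform, against at most 16 on any other array. The medians of the large and the small subunit on an array differed by 0.13 at most, on KO stroma of tumour 3 (large -0.60, small -0.47) and KO epithelium of tumour 4 (large -0.21, small -0.34).

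**Figure D1:**
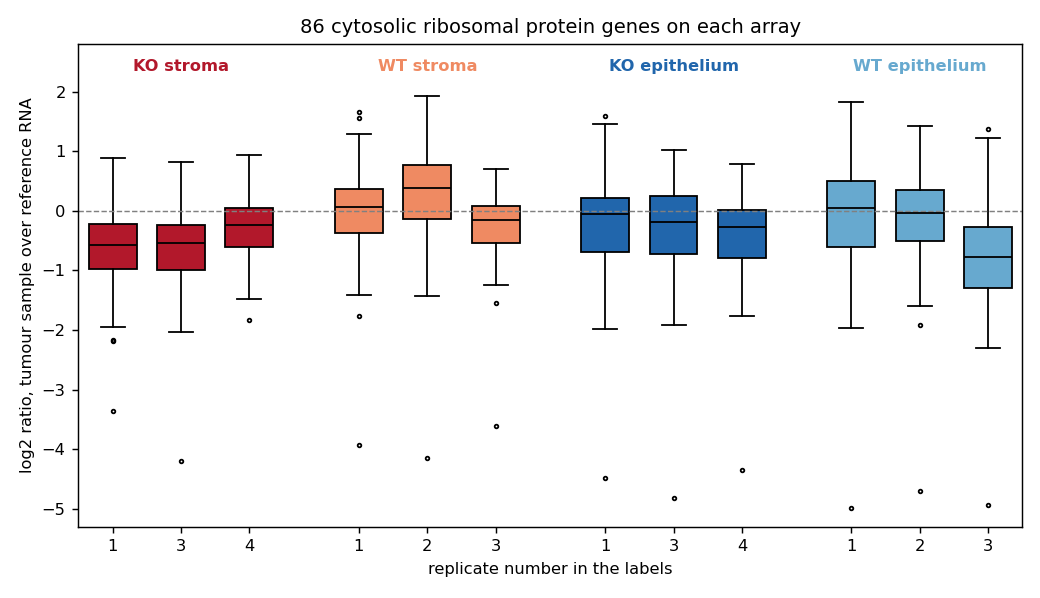
Log2 ratio of the tumour sample over the reference RNA for 86 ribosomal protein genes on each of 12 arrays, by group and replicate number. Boxes span the quartiles with the median as a line, whiskers reach 1.5 box lengths at most and points lie beyond them. The medians of KO stroma (-0.58, -0.53 and -0.23) lie below those of WT stroma (0.07, 0.38 and -0.16) while boxes of these groups overlap, and the lone low point of most arrays is Rpl39l.

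In stroma 79 of the 86 ribosomal protein genes had a lower mean ratio in KO than in WT tumours, and 5 passed the test. These 5 fell, namely Rpl4, Rpl7a, Rpl32l, Rps2 and Rps3, by 1.80-fold to 3.41-fold, and none rose (limma over 13350 genes, Benjamini-Hochberg adjusted p under 0.05). That is 5.81% of the members, against 2.87% of all genes that fell and 3.51% that rose. The members' median log2 difference was -0.48, with quartiles of -0.69 and -0.22, while 51.4% of all genes lay below 0, with a median of -0.01. An unadjusted p under 0.05 was found for 32 members (37.2%, against 21.5% of all genes). The 3 KO stroma values lay below all 3 WT stroma values in 30 members (34.9%) and above them in 0, against 13.1% in each direction over all genes. These genes are measured on the same 6 arrays, so their counts are not independent of one another. In bulk samples of captured tissue, fewer cells of a type with many ribosomes and less mRNA per cell cannot be told apart.

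Rpl4, a large subunit protein whose extended loop lines the exit tunnel, had ratios of -1.22, -1.01 and -0.91 in KO stroma, against -0.14, 0.12 and -0.16 in WT stroma. The groups did not overlap, and the difference was -0.98 ± 0.17 (SE, n = 3 each; limma adjusted p = 0.0139). Rpl7a, another protein of the large subunit, had -2.17, -1.30 and -1.14 in KO stroma, against -0.21, -0.14 and -0.28 in WT stroma. All 3 KO values were below the WT values, with KO tumour 1 far below the rest, and the difference was -1.33 ± 0.25 (SE; limma adjusted p = 0.016).

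Rps2, a protein of the small subunit near the entry of the mRNA channel, had -3.35, -1.85 and -1.39 in KO stroma, against 0.01, -0.29 and -0.99 in WT stroma. The groups did not overlap, KO tumour 1 lay far below the other KO tumours, and the difference was -1.77 ± 0.46 (SE; limma adjusted p = 0.0461), the lowest of all members. With tumour as a random block it did not pass (limma adjusted p = 0.0522). Rps2 was also the lowest of all members in epithelium, where it had -0.98, -1.42 and -1.40 in KO and 0.09, -0.47 and -0.65 in WT. Those groups did not overlap either, but the difference of -0.92 ± 0.46 (SE) had a limma adjusted p of 0.643.

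Rps3, a small subunit protein of the mRNA entry site with a known part in DNA repair, had -0.45, -0.31 and -0.34 in KO stroma, against 0.29, 0.74 and 0.43 in WT stroma. Its KO values were the tightest of the 5, and the difference was -0.85 ± 0.17 (SE; limma adjusted p = 0.0192). Rpl32l, annotated as a protein-coding copy of Rpl32, had -1.95, -1.14 and -0.87 in KO stroma, against 0.13, 0.42 and -0.08 in WT stroma, a difference of -1.48 ± 0.29 (SE; limma adjusted p = 0.0192). Rpl32 itself, on another probe, had -0.46; many ribosomal protein genes have processed copies elsewhere in the genome, and cross-hybridisation of a probe was not tested.

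**Figure D2:**
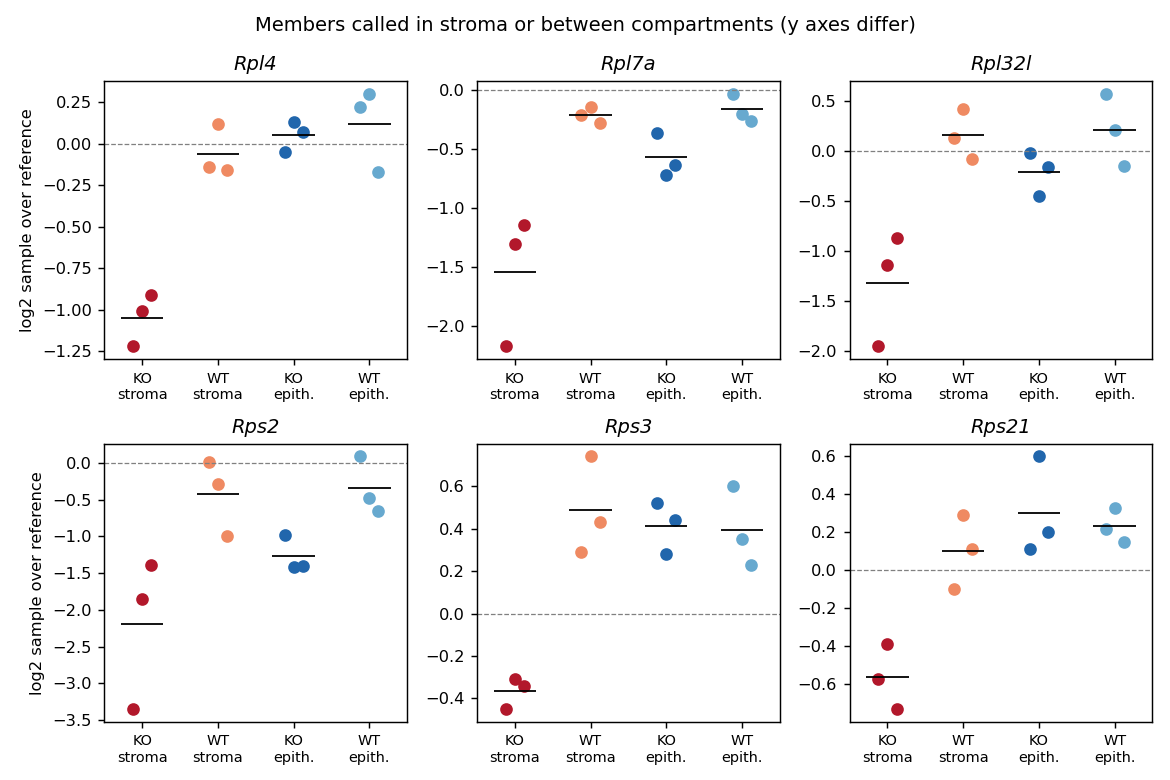
Log2 ratio over the reference RNA on each array for 6 members, with a bar at the group mean (n = 3) and a separate y axis for each gene. In Rpl4, Rpl7a, Rpl32l, Rps2 and Rps3 the 3 KO stroma points lie below the 3 WT stroma points; Rps21 shows the same order, and passed the test between the compartments only.

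Not all 5 calls were firm. Rpl4 passed in each of the 6 fits that left out 1 stromal array, Rpl7a in 5, Rps3 in 4, Rpl32l in 3 and Rps2 in 2. The count of members called was 2 without KO tumour 1, without WT tumour 1 or without WT tumour 2, 5 without KO tumour 3 or 4, and 7 without WT tumour 3, while the median difference stayed between -0.56 and -0.36. Over all genes 175 to 887 of 13350 were called in these fits. Without KO tumour 3, 4 of the 5 called members were lower and the other, Rpl39l, was higher (limma adjusted p = 0.00649). When only the 6 stromal arrays were fitted, 0 members passed in limma, with 79 of 86 still below 0, and without loess 0 passed with a median of -0.83 and 84 of 86 below 0. Of all 13350 genes 292 were called on the stromal arrays alone and 201 without loess.

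Among the other members of the large subunit, Rpl5 and Rpl11 are of interest because, with 5S ribosomal RNA, they bind and restrain Mdm2. Rpl5 had -1.17, -1.06 and -0.69 in KO stroma, against 0.68, 1.20 and -0.31 in WT stroma; these do not overlap, and the difference of -1.49 had a limma adjusted p of 0.0585. Rpl11 had -0.64, -1.20 and -0.20 in KO stroma, against -0.74, -0.29 and -0.62 in WT stroma, which overlap, with a difference of -0.13 (limma adjusted p = 0.833). The difference between these partners was not tested, and the dimmer probes of Rpl11 gave -0.88 (limma adjusted p = 0.116 in the fit of probes) and -1.31, of which the second fell (0.0349). Rpl38, which is needed for the translation of Hox mRNAs in mouse embryos, had -0.15 (limma adjusted p = 0.742), and Rpl7 had -0.77 (0.0535). The dimmer probes of Rpl7 gave -0.98, -1.14 and -1.47 and all fell (limma adjusted p = 0.0352, 0.0378 and 0.037 in the fit of probes). Over the 43 large subunit members, each on its brightest probe, 41 lay below 0, with a median of -0.47, and 2 fell.

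In the small subunit, 28 of 31 members, each on its brightest probe, lay below 0, with a median of -0.52, and 2 fell. Rps4x and Rps3a1 came next after Rps2, with differences of -1.36 (limma adjusted p = 0.0716) and -1.32 (0.2). Rps6, the substrate of the S6 kinases, had -0.95 (0.164), and Rps19, the gene most often mutated in Diamond-Blackfan anaemia, had -0.92 (0.349). Both showed wide spreads in WT stroma: Rps19 had 0.14, 0.57 and 0.33 in KO stroma, against 1.66, 1.92 and 0.20 in WT stroma. Rpsa, also known as a laminin receptor, was 1 of the 3 small subunit members above 0, at 0.23 (0.739). Its dimmer probes lay below 0, at -0.15, -1.51 and -0.68 (limma adjusted p = 0.794, 0.16 and 0.139 in the fit of probes). The dimmer probe of Rps3a1 gave -1.16 and fell (limma adjusted p = 0.018 in the fit of probes).

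The 3 stalk proteins, which recruit translation factors, had a median of -0.23, and none passed the test on its brightest probe. Rplp0 had -1.07, -1.20 and -0.98 in KO stroma, against -0.78, -0.47 and -0.83 in WT stroma, which do not overlap, with a difference of -0.39 (limma adjusted p = 0.343). Rplp1 and Rplp2 had differences of -0.23 (0.769) and -0.01 (0.991). The dimmer probes of Rplp0 gave -0.82 (limma adjusted p = 0.0601 in the fit of probes) and -0.85, of which the second fell (0.0208).

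The diverged copies can be set beside the genes they resemble. Rpl22l1, which can replace Rpl22, had -0.56 (limma adjusted p = 0.0817), and Rpl22 had -0.24 (0.509). Rpl36al had -0.52 (0.112) and Rpl36a -0.44 (0.205), while Rps27l, known as a p53 target, had -0.39 (0.29) and Rps27 -0.04 (0.95). Rps4l had 0.48 (0.679), against -1.36 for Rps4x; WT epithelium of tumour 3 was high for this gene, at 1.38, where the other 11 arrays lay between -1.48 and -0.24. Rpl7l1, which resembles Rpl7, was not well above background on any KO stroma array and was so on 2 WT stroma arrays. Its Cy3 signal (measured log2 means 6.44 in KO and 6.89 in WT) gave a bound of 1.24-fold for WT over KO stroma. This bound takes, in place of the dim signal, the higher of it and the lowest signal well above background on each array. The fitted difference of the ratios was smaller, at -0.24 ± 0.21 (SE) or 1.18-fold (limma adjusted p = 0.564). A higher level in WT stroma was therefore not shown. Of these genes only Rpl32l passed the test on the brightest probe. In the fit of probes the dimmer probe of Rpl22 gave -1.09 and fell (limma adjusted p = 0.0497). The dimmer probes of Rpl36a gave -0.62 (limma adjusted p = 0.0849 in the same fit) and -0.74, of which the second fell (0.0412). Those of Rps27 gave -0.15, -0.47 and -0.61 (0.762, 0.291 and 0.0868).

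**Figure D3:**
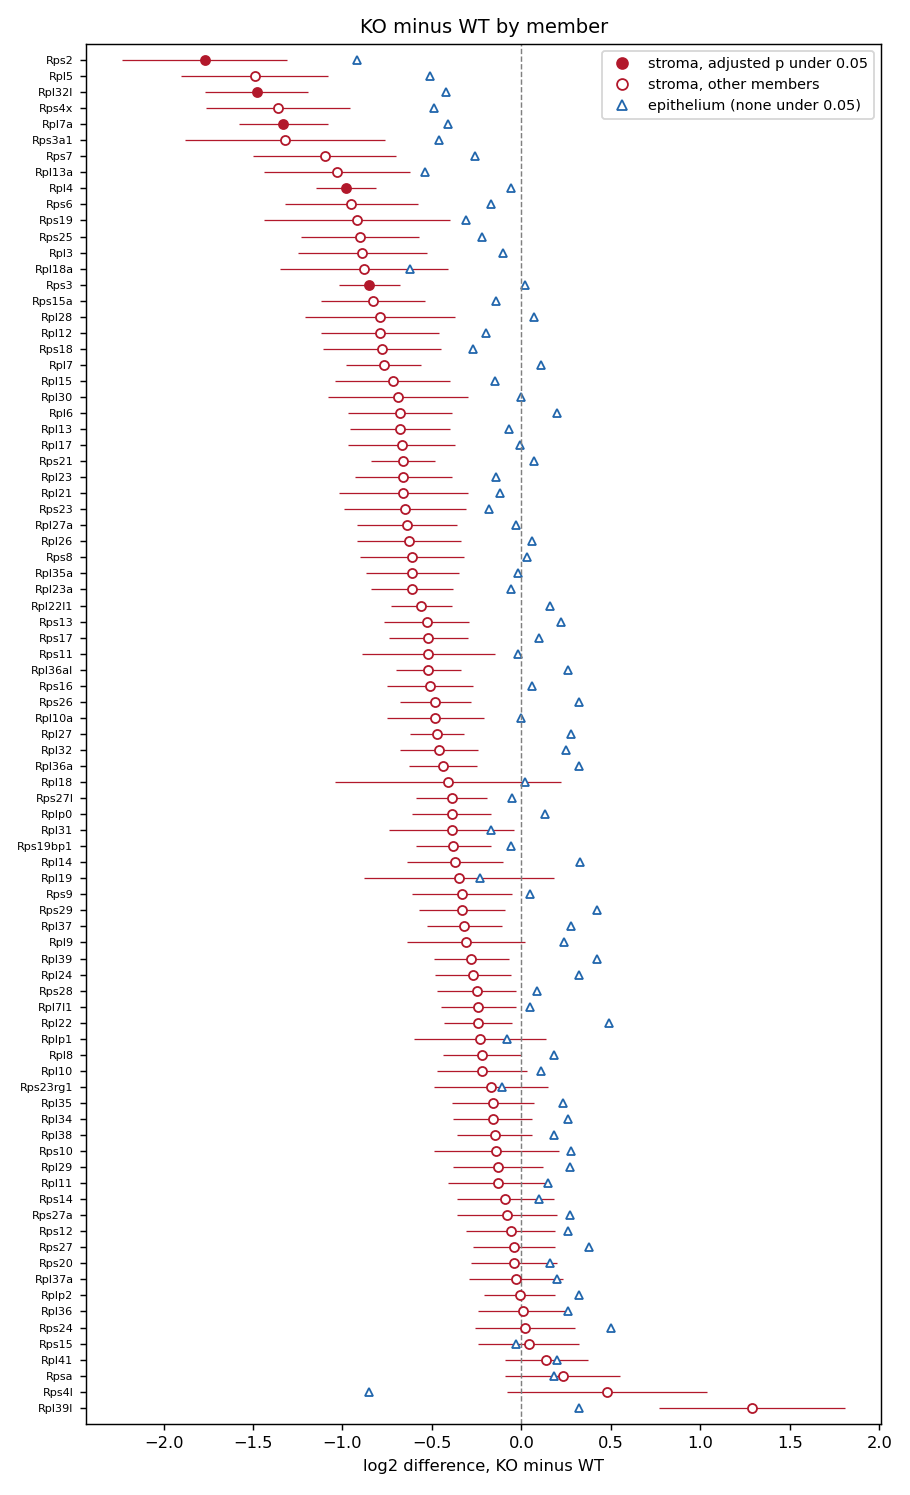
Log2 difference KO minus WT for the members reported by name in stroma (circles, with the standard error as a bar) and epithelium (triangles), ordered by the stromal value. Filled circles mark the 5 members with an adjusted p under 0.05 in stroma; nearly all circles lie left of 0, and the triangles scatter about 0.

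Dimmer probes mostly gave lower estimates than bright ones. Over the 172 kept member probes 161 lay below 0 in stroma, with a median of -0.62, against -0.03 for all 16348 kept probes, and 25 probes of 20 members fell while 0 rose (2.64% of all kept probes fell). Probes brighter than the median of 14.55 (log2 Cy3) had a median difference of -0.43 and dimmer ones -0.85. Among 49 members with more than 1 probe above background on all 12 arrays, the dimmest probe lay below the brightest in 34, with medians of -0.77 for the dimmest and -0.51 for the brightest. Of the 51 members with more than 1 kept probe, 45 had every probe below 0. With the dimmest such probe standing for each gene, an alternative chosen after seeing the data, 16 of 84 members fell in stroma in place of 5. Over all 9190 genes tested in this way 709 passed in either direction. Of the 5, Rpl4 and Rpl32l, with 1 probe each, passed again. Rpl7a (-0.61, limma adjusted p = 0.157), Rps2 (-1.15, 0.384) and Rps3 (-0.52, 0.144) did not pass. In these genes the dimmest probe lay above the brightest. The part of brightness in the differences between members was not tested.

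Rpl17 and Rps24 show how far probes of a gene can differ. The 7 probes of Rpl17 gave differences between -1.60 and -0.36, and 3 of them fell, although the brightest, which stands for the gene, did not (-0.67, limma adjusted p = 0.239 in the fit of probes). Rps24 has 3 probes, each designed to another RefSeq transcript, with differences of 0.02, 1.11 and -1.11. The probe at -1.11 had ratios of -1.41, -0.77 and -1.31 in KO stroma, against -0.14, 0.33 and -0.35 in WT stroma, and fell (limma adjusted p = 0.0267 in the fit of probes). The probe at 1.11 had -0.32, -0.15 and -0.98 in KO stroma, against -1.77, -2.17 and -0.85 in WT stroma (0.262). Rps24 is known to be spliced to transcripts with different 3′ ends, and the difference between the probes was not tested.

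**Figure D4:**
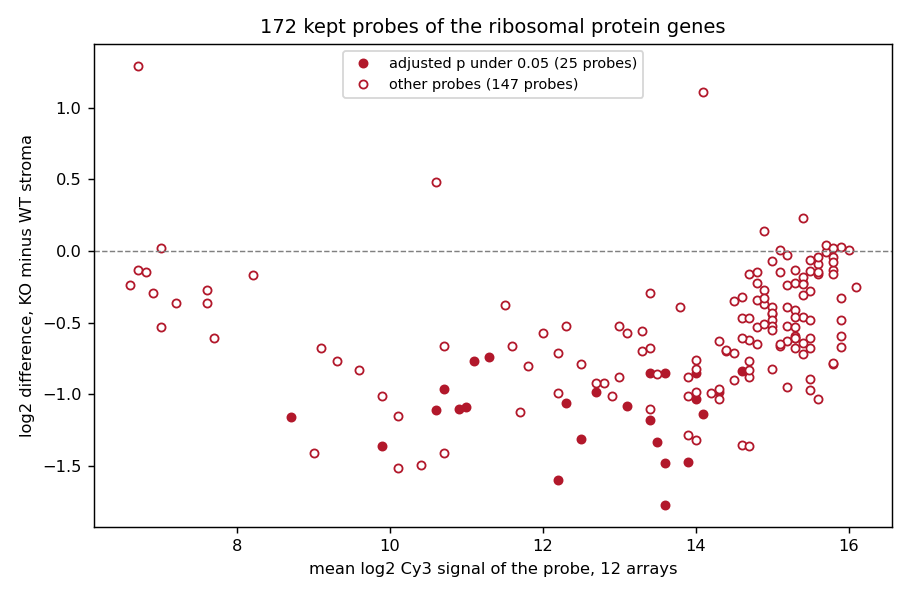
Log2 difference KO minus WT in stroma against the mean log2 Cy3 signal of each of 172 member probes, with the 25 that had an adjusted p under 0.05 in the fit of probes filled. The filled points lie between log2 Cy3 of 8.7 and 14.6, and the brightest probes lie closest to 0.

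Markers of cell types moved with the stromal comparison. Luminal epithelial markers (12 tested, 6 of them called lower, 0 higher) had medians of 0.67, 0.97 and 0.15 in KO stroma, against 2.37, 1.85 and 1.36 in WT stroma. The Wnt1 transgene, made by the epithelium, had 3.01, 3.80 and 2.90 in KO stroma, against 7.20, 6.60 and 6.53 in WT stroma, a difference of -3.53 ± 0.29 (SE; limma adjusted p = 0.00086). Fibroblast markers (12 tested, 2 higher, 0 lower) had medians of 3.34, 2.42 and 3.53 in KO stroma, against 0.33, 0.01 and 1.77 in WT stroma, and macrophage markers (8 tested, 3 higher, 0 lower) 4.09, 3.45 and 3.58 in KO stroma, against 2.69, 1.12 and 2.39 in WT stroma. Luminal markers and the transgene were thus higher in WT stroma and fibroblast and macrophage markers higher in KO stroma, and their part in the ribosomal protein values was not tested. T and NK cell markers had a median of 3.68 and B cell markers of 4.12 in WT stroma of tumour 2, the array where the members were highest; on the other stromal arrays these lists lay at most at 0.91 and -0.64. Without that array the members' median difference was -0.36 and 2 of them fell, while 361 of 13350 genes were called in either direction. All KO arrays sat in one row of their slide and all WT arrays in the other, so the effects of genotype and of slide row cannot be told apart.

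Of 4 other lists of the translation machinery, 3 also lay mostly below 0 in stroma, on the same arrays. Of 25 other genes with oligopyrimidine mRNAs, 22 lay below 0, with a median of -0.53. Npm1, a nucleolar chaperone, fell by 1.23 (limma adjusted p = 0.0357), and Vim, a mesenchymal filament gene, rose by 2.92 (0.0293). Ribosome biogenesis genes (48 tested, 39 below 0) had a median of -0.32 with 3 lower and 2 higher, among them Wdr43 and Nhp2, which fell by 1.18 (limma adjusted p = 0.0118) and 0.80 (0.0175), and Ubtf, the activator of ribosomal RNA transcription, which rose by 1.15 (0.0338). Mitochondrial ribosomal protein genes (76 tested, 62 below 0) had a median of -0.29, with Mrpl48 lower at -0.79 (limma adjusted p = 0.016) and Mrpl33 higher at 0.68 (0.0216). Of 16 tested regulators of translation and ribosome synthesis 1 fell, Myc, which drives ribosomal protein transcription, by 1.59 (limma adjusted p = 0.0425), and 8 of the 16 lay below 0, with a median of -0.02.

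In epithelium no difference between KO and WT was detected. No member passed the test in limma, as 0.00749% of all genes did (1 gene, higher in KO), 1 member had an unadjusted p under 0.05, and 8.07% of all genes did. The median difference was 0.06, against 0.03 for all genes, with 37 of 86 below 0; it turned to -0.28 without loess (all genes -0.17), to -0.16 without WT tumour 3, to -0.07 in the deposited value table, turned to sample over reference (all genes -0.05), to -0.06 with the dimmest probes and to -0.01 with the mean of the probes, and in none of these did a member pass. Rpl22, a protein whose gene is lost in some leukaemias, was the 1 member, with 0.21, 0.45 and 0.44 in KO epithelium, against -0.10, 0.13 and -0.42 in WT epithelium. Its groups did not overlap, and its difference was 0.49 ± 0.19 (SE, limma adjusted p = 0.613). On the dimmer probe of Rpl22 the groups overlapped, with a difference of -0.08 (limma adjusted p = 0.963 in the fit of probes). Groups did not overlap in 2 members with KO lower (2.33%, against 4.46% of all genes) and 4 with KO higher (4.65%, against 9.49%).

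The difference between the KO effect in stroma and that in epithelium was estimated below 0 in 82 of 86 members, with a median of -0.55 against -0.06 for all genes. No member and no gene of the 13350 passed this test in limma (0% called), and 23 members and 2412 genes (18.1% of all) had an unadjusted p under 0.05. The lowest estimates were those of Rpl32l at -1.06 and Rpl5 at -0.98, and the smallest adjusted p among the named members was that of Rpl4, with -0.92 ± 0.22 (SE; limma adjusted p = 0.12). A KO effect on these genes that is larger in stroma than in epithelium was therefore not shown by this test. Rps4l had the highest estimate, at 1.33 (limma adjusted p = 0.248).

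Set against the epithelium of the same tumours, stroma had 2 lower members and 1 higher one. Over all genes 6.63% were lower and 8.37% higher, and the members' median was 0.06 against -0.03. That median turned to -0.29 without loess, -0.22 with the dimmest probes, -0.13 in the Cy3 channel alone and -0.09 with the mean of the probes. Rpl4 was lower in stroma, with a difference of -0.64 ± 0.11 (SE, 6 tumours; limma adjusted p = 0.0146), and Rps21, a small subunit protein, had -0.50 ± 0.11 (0.0325). The count of 3 was 1 without KO tumour 1, without KO tumour 4 or without WT tumour 3, and 0 without WT tumour 1. Over all genes 939 to 1386 of 13350 were called in the fits that left out a tumour. Stroma and epithelium were hybridised on a slide each, so slide and compartment cannot be told apart.

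The tumours did not share one direction. The median difference of the members, stroma minus epithelium, was -0.46, -0.34 and 0.20 in KO tumours 1, 3 and 4 and -0.02, 0.45 and 0.58 in WT tumours 1, 2 and 3. Stroma was the lower compartment for 63, 73 and 31 of 86 members in KO tumours 1, 3 and 4 and for 46, 5 and 12 in WT tumours 1, 2 and 3. WT tumour 3 is the one whose epithelial array was low in these genes.

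**Figure D5:**
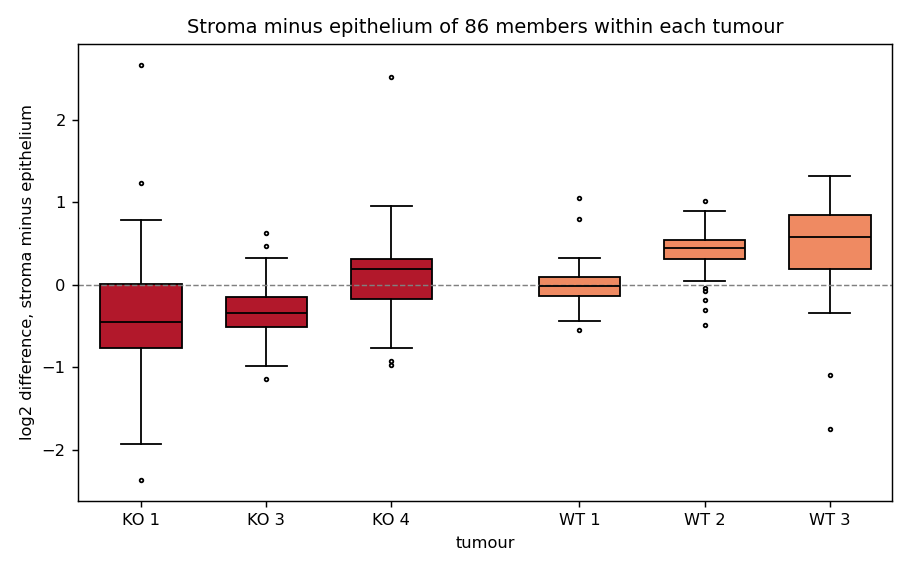
Log2 difference, stroma minus epithelium, of 86 members within each of 6 tumours, with boxes over the quartiles, the median as a line and points beyond 1.5 box lengths. The medians are -0.46, -0.34 and 0.20 in KO tumours and -0.02, 0.45 and 0.58 in WT tumours; the high points of KO 1 and KO 4 above 2 are Rpl39l, whose epithelial signal was mostly not well above background.

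In KO tumours 7 members were lower in stroma and 1 higher, with a median of -0.22 and 62 of 86 below 0; 9.86% of all genes were lower and 10.2% higher, so the shares of members are below the background. Rpl4 had stromal ratios of -1.22, -1.01 and -0.91, against -0.05, 0.13 and 0.07 in the epithelium of the same KO tumours. It was lower in each tumour, by -1.10 ± 0.16 (SE; limma adjusted p = 0.00627). Rps21 had -0.57, -0.39 and -0.73 in KO stroma, against 0.11, 0.60 and 0.20 in KO epithelium, a difference of -0.87 ± 0.16 (SE; limma adjusted p = 0.0138). These groups do not overlap, and the WT compartments do, with -0.10, 0.29 and 0.11 in stroma, against 0.22, 0.33 and 0.15 in epithelium. Rps3, Rpl32l and Rpl7a were lower too, by 0.78 to 1.11 on the log2 scale, Rpl7a with an adjusted p that rounds to 0.05, and so were Rpl22l1 and Rpl36al at -0.63 each. The within-tumour differences of Rpl22l1 were -0.62, -0.63 and -0.64 and those of Rpl36al -0.64, -0.70 and -0.54, a tight pair among the diverged copies. The count of 8 was 2 without KO tumour 1, 2 without KO tumour 3, 1 without KO tumour 4 and 4 without WT tumour 1. Over all genes 1096 to 2716 of 13350 were called in the fits that left out a tumour.

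In WT tumours 0 members passed in limma, as 0.00749% of all genes did, and 12 (14%) had an unadjusted p under 0.05, against 8.79% of all genes. The estimates were mostly higher in stroma, with 76 of 86 above 0 and a median of 0.35 against 0.02 for all genes. Stroma exceeded epithelium in all 3 tumours in 38 members (44.2%, against 16.2% of all genes), and the median was 0.23 without tumour 3 and 0.04 without loess. Rps20 and Rps10 had the highest estimates of the small subunit, at 0.62 (limma adjusted p = 0.473) and 0.63 (0.596).

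Rpl39l, the copy of Rpl39 known from male germ cells, had -1.82, -4.19 and -1.83 in KO stroma, -3.93, -4.15 and -3.61 in WT stroma, -4.48, -4.82 and -4.35 in KO epithelium and -4.98, -4.70 and -4.93 in WT epithelium. The signal was well above background on 2 KO stroma, 2 WT stroma, 1 KO epithelium and 0 WT epithelium arrays, so that most epithelial ratios are of a signal near background. It was the 1 member called higher in stroma than in epithelium, over all tumours (limma adjusted p = 0.0217) and in KO tumours (0.0201), but the size of these differences is not well measured. The means of log2 Cy3 were 8.22 in KO stroma and 6.72 in KO epithelium. The same kind of bound on the Cy3 signal gave 1.54-fold for WT stroma over WT epithelium (measured means of log2 Cy3 7.06 and 6.32). The fitted difference of the ratios between these groups did not pass (limma adjusted p = 0.568). Its KO minus WT difference in stroma was 1.29, the highest of the members, but the groups overlapped through KO tumour 3 (limma adjusted p = 0.178). Rpl39, by contrast, had -0.24, -0.05 and -0.32 in KO stroma, against -0.01, 0.34 and -0.11 in WT stroma, a difference of -0.28 (0.501).

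The deleted gene could not be checked on these arrays. Rarb had 1.83, 2.09 and 0.57 in KO stroma, against -0.01, -0.29 and 1.37 in WT stroma, with a limma adjusted p of 0.402, and 0.994 in epithelium. Where its probe lies relative to the deleted part is not known here, so it checks nothing about the labels.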

How the data were processed

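Each array carried Cy3-labelled amplified tumour RNA and Cy5-labelled common reference RNA in the same orientation, per the labels. Per the file headers, the scanner software was Agilent Feature Extraction 10.7.3.1 and the design build mm9. From the deposited files the median intensity of spots and local background was used, and the processed intensity as an alternative; the deposited log10 ratio (Cy5 over Cy3) served only to check the direction. How the deposited table of log2 values was made is not stated. Against the ratios computed here its epithelial columns ran as reference over sample (r of -0.9 to -0.865 across spots), centred near 0, and were turned before use. Its stromal columns, with medians of -0.01 to 0.05, did not match their own arrays (r of -0.00454 to 0.000645). Their order, scale and direction are therefore unknown, and they were left out.

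Of 62976 spots 3671 were controls. Median signals, where mean signals had been planned, were corrected with normexp (offset 50) and then by loess within each array, with controls at weight 0. Non-uniform spots were dropped and the spots of a probe averaged, which gave 55681 probes. A RefSeq table of GRCm38.p6 named 27235 of them by accession (20660 genes). Probes needed Cy3 well above background on 3 or more of the 12 arrays, and each gene was represented by its brightest such probe. Tests used limma 3.58.1 in R 4.3.3, adjusted after Benjamini and Hochberg over 13350 genes, with 0.05 as the threshold. The KO against WT tests came from a fit of 4 group means (8 residual degrees of freedom), and the stroma against epithelium tests from a fit with tumour as a block (4). The pairing rests on the shared genotype and number in the titles; deviations from group means correlated at 0.0913 to 0.455 within a tumour, above any other pairing. The steps were tested on simulated data. The number of arrays limits the precision.

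Named were a fixed set of members, those called, and the 4 highest and lowest of each comparison. Members, lists and tests were chosen with earlier results of these data known. Rps23rg1 was put among the diverged copies after the files were seen. A member is not reported here by name and is left out of the plot of KO minus WT by member, while counts and medians over members include it.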

Additional observations from a re-analysis of the deposited data

How the results depend on the processing

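The alternatives moved the count of called members in KO minus WT stroma but not the sign of the median. The medians of KO minus WT in epithelium and of stroma minus epithelium, each 0.06, changed sign in some alternatives. For KO minus WT in stroma, 5 members passed; 0 did with median centring and no loess, 0 with the 6 stromal arrays alone and 16 with the dimmest probe above background on all 12 arrays, an alternative chosen after seeing the data, and 2 to 7 when an array was left out, with Rpl39l called higher without KO tumour 3. Over all genes 851 of 13350 passed in either direction, 201 without loess and 292 with the stromal arrays alone. With the dimmest probes 709 of 9190 genes passed, and 175 to 887 of 13350 when an array was left out. For stroma minus epithelium 3 passed, 15 in the Cy3 channel alone, 9 with the dimmest probes and 0 to 2 when a tumour was left out. Over all genes 2003 of 13350 passed there, 3311 in the Cy3 channel alone and 939 to 1386 when a tumour was left out. With the dimmest probes 1489 of 9190 genes did. In KO tumours 8 passed, 4 with Agilent's processed signals, 5 without loess, 23 in the Cy3 channel alone, 14 with the mean of kept probes, 22 with the dimmest probes and 1 to 6 when a tumour was left out. Over all 13350 genes 2676 passed in KO tumours, 2223 with processed signals, 1529 without loess and 3969 in the Cy3 channel alone. With the mean of probes 2639 did, and 1096 to 2716 when a tumour was left out. With the dimmest probes 2053 of 9190 genes passed. With tumour as a random replicate block (correlation of 0.22) 4 members passed in KO against WT stroma, without Rps2 (adjusted p = 0.0522), and the fits without the replicate block gave 3 for stroma minus epithelium and 8 in KO tumours; the pairing changed no other count. No member passed in KO against WT epithelium, in WT tumours or for the difference of the KO effects under any alternative run. The cause of these changes was not tested, except that fewer arrays give fewer degrees of freedom. The median of the members in stroma kept its sign in every alternative run (-0.83 to -0.29); without loess the medians were -0.28 in epithelium, -0.29 for stroma minus epithelium, -0.60 in KO tumours and 0.04 in WT tumours. Of 15 alternatives Rpl4 passed in 13, Rpl7a in 11, Rpl32l and Rps3 in 10 and Rps2 in 4. Rpl3l, Rpl10l, Rpl39l and Rpl7l1 are limited by signal over background.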
